A study of Mus musculus with 9 samples.

Results

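The coding sequences (CDS) of mouse mRNAs were compared between RNA crosslinked to FLAG-tagged Chtop lacking exon 5 and size-matched input RNA. The comparison took the 3 immunoprecipitated libraries of the isoform without exon 5 and the 3 input libraries, 6 of the 9 libraries of the series, in the table of CDS counts. That table held 22442 genes, of which 11601 had a CDS count in at least 1 of the 9 libraries and 6376 had enough counts to be tested. RNA was recovered by iCLIP, in which ultraviolet light crosslinks RNA to protein in living cells, an antibody pulls the protein down and the attached RNA fragments are sequenced.

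Chtop is a nuclear RNA-binding protein of the TREX complex, which loads onto spliced mRNA and hands it to the export receptor Nxf1 for passage through the nuclear pore. Its arginine-rich central region is methylated by Prmt1, the enzyme that gave the protein its name (chromatin target of Prmt1). An input that is size-matched is cut from a matching stretch of gel with no antibody used, so it holds RNA crosslinked to any protein of that size range.

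All cells were N2a Flp-In rtTA, a mouse neuroblastoma line in which a doxycycline-inducible cDNA is placed at 1 engineered site. The immunoprecipitated group expressed FLAG-Chtop without exon 5 and gave replicates 1, 2 and 3. Input replicate 1 came from that same line, input replicate 2 from the line expressing FLAG-Chtop with exon 5 and input replicate 3 from a line expressing FLAG-GFP, so the 3 inputs are not copies of 1 sample. Cells received doxycycline at 2 µg/mL for 24 hours and ultraviolet light of 254 nm at 0.15 J/cm2, and 2% of the lysate was kept as input. The labels call the replicates biological and say that they were handled on different days. The tagged protein was made from a transgene, no immunoprecipitate of the FLAG-GFP line was analysed here, and the labels do not say whether each line was 1 clone. A further 3 libraries of FLAG-Chtop with exon 5 entered the fit for the spread between replicates and for 1 direct comparison.

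CDS totals were 416001, 678357 and 1270224 counts in the libraries without exon 5, against 53356, 81283 and 34296 counts in the inputs. A gene with 3 counts therefore stood at 3.33 to 8.99 CPM (CDS counts scaled for depth by TMM, the trimmed mean of M values) without exon 5 and at 30.1 to 36.2 CPM in the inputs. Of the genes tested, 2.26% to 6.96% had no count in a library without exon 5, against 64.9%, 38.1% and 78.3% in the inputs. Across the 6376 genes, log2 CPM correlated at 0.716 to 0.787 among the libraries without exon 5, at 0.251 to 0.318 among the inputs and at 0.256 to 0.372 between the groups. For genes of at least 100 CPM the median coefficient of variation was 28.8% without exon 5 and 114% in input, where counting error alone gives 8.93% and 29.5%. These are bulk lysates, so fewer cells carrying an RNA and less of that RNA per cell cannot be told apart. Of 25 markers of neuroblastoma and sympathetic neurons named in the tables, 18 to 21 had a CDS count without exon 5 and 9 to 16 in the inputs. Of 14 markers of other cell types, 0 to 2 had a count in a library without exon 5 and 0 in each input.

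A larger share of the counts lay in coding sequence after immunoprecipitation. The CDS took 66.7%, 67.5% and 68.8% of the counts on annotated gene parts in the libraries without exon 5, against 47.6%, 46.9% and 45.4% in the inputs. Every library without exon 5 lay above every input. The shares averaged 67.7% ± 1.11 without exon 5 and 46.7% ± 1.13 in input (SD, n = 3 each), a difference of 21.0 percentage points. A two-sided exact permutation test gave p = 0.1, which is the smallest that 3 libraries against 3 allow, and 0.15 after Benjamini-Hochberg adjustment over 3 such tests. Taken over CDS and 3' UTR counts alone, the CDS share was 70.1% ± 1.26 without exon 5 and 48.2% ± 1.25 in input (SD, n = 3 each). The 100 genes with most CDS counts held 22.7% ± 1.47 of them without exon 5 and 23.7% ± 4.95 in input (exact permutation p = 0.9).

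**Figure D1:**
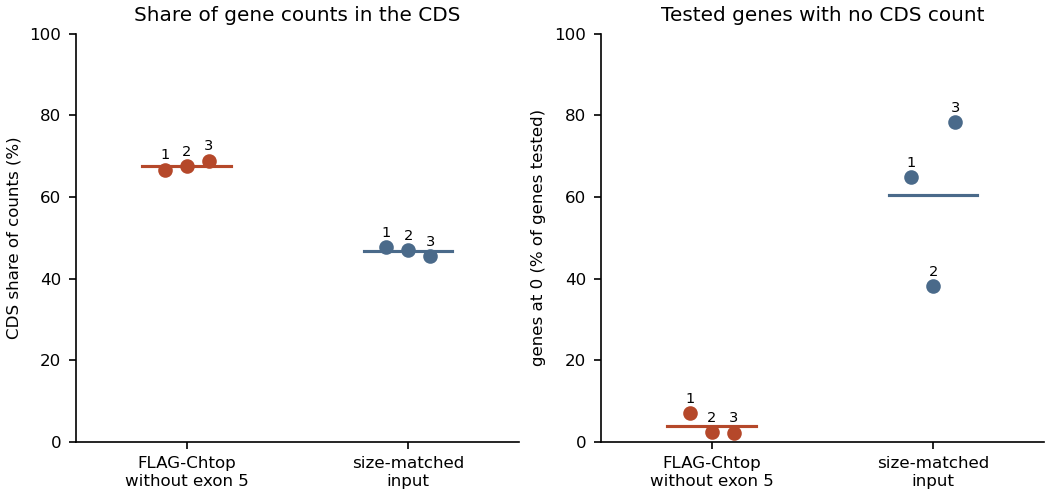
CDS share of the counts (left, %) and share of the 6376 tested genes with no CDS count (right, %) in each library, for FLAG-Chtop without exon 5 and size-matched input. Points are libraries labelled by replicate number and lines are group means. The CDS shares sit between 66.7% and 68.8% without exon 5 and between 45.4% and 47.6% in input, and up to 78.3% of the tested genes were at 0 in an input.

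In the test across genes, the CDS of 752 genes was higher without exon 5 than in input (11.8% of those tested) and that of 28 was lower (0.439%), at an adjusted p under 0.05 with edgeR's quasi-likelihood test. Among the genes that passed higher were Srrm2, Kmt2d, Plec, Irs2 and Racgap1, and among those that passed lower were Rpl31, Tpt1, Bsg and Itgb1. The number depended on the libraries in the fit: without replicate 1, 2 or 3 of the isoform without exon 5 it was 11, 4 or 5 higher and 1, 0 or 0 lower. With only the 6 libraries compared, 0 of 3636 genes tested passed higher and 3 lower in the same test. Without input replicate 2, the deepest input, 2100 passed higher and 60 lower. It also depended on the scaling, with 14 genes higher (0.22%) and 21 lower (0.329%) by library size alone, where all 752 still had a positive fold change. TMM factors were 0.709 to 0.802 without exon 5 and 1.15 to 2.42 in the inputs, and the median log2 fold change of all genes tested was 1.59 with them and 0.59 by library size alone.

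Most genes that passed higher had hardly any input counts. Of the 752, 544 had a count of 0 in every input, 59 had 1 to 3 input counts in sum and 94 had at least 20. In all, 1624 tested genes had 0 in every input and 2185 genes had at least 20 input counts. Genes at 0 in every input were thus called higher more often than well-counted ones. For a single gene among the 544, a fold is given below only as a lower bound. It is computed with 3 counts in each input and TMM scaling, and it depends on both. Medians over many genes use fitted fold changes, which for such genes are no bound, so the median with genes at 0 in a group set at their bound is given too. Groups did not overlap for 2699 genes in the higher direction (42.3% of those tested) and for 91 in the lower direction (1.43%). Of the 2699, 1427 had 0 in every input. Such genes entered the test only through the deeper immunoprecipitated libraries, so for them the direction was fixed by the filter. Among the 4752 tested genes with an input count, 1272 (26.8%) did not overlap in the higher direction. At an unadjusted p under 0.05, 2035 genes were higher and 110 lower. All 752 genes that passed higher had a symbol in the deposited tables, against 9 of the 28 that passed lower. A symbol was available for 5583 of the 6376 genes tested.

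The highest CDS level without exon 5 was that of Srrm2, a large serine- and arginine-rich scaffold of nuclear speckles (ENSMUSG00000039218.17, chromosome 17, 23790527 to 23824741 in GRCm38.p6, CDS of 8159 bases). It stood at 11803, 12624 and 13387 CPM without exon 5, against 1316, 2477 and 2014 CPM in the inputs. The groups lay far apart, with a log2 fold change of 2.70 (SE 0.36, adjusted p = 0.00611). Kmt2d, a histone H3 lysine 4 methyltransferase (chromosome 15, 98831669 to 98874077, CDS of 16869 bases), had 9022, 10309 and 11093 CPM without exon 5, against 562, 1783 and 1025 CPM in the inputs. Its CDS was higher by 3.17 on the log2 scale (SE 0.46, adjusted p = 0.00611). Prune2, a large protein with a BCH domain, had 7191, 8498 and 8578 CPM without exon 5, against 1095, 1474 and 844 CPM in the inputs. Every library of Prune2 without exon 5 lay above every input, at a log2 fold change of 2.83 (SE 0.41, adjusted p = 0.00611).

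Plec encodes plectin, a linker of intermediate filaments. It varied most among these leading genes, at 5522, 11075 and 14192 CPM without exon 5, against 1075, 1399 and 2158 CPM in the inputs, and passed at a log2 fold change of 2.73 (SE 0.49, adjusted p = 0.0168). Irs2, an adaptor of the insulin receptor, had 6209, 8788 and 9876 CPM without exon 5, against 844, 2050 and 386 CPM in the inputs. It was higher by 2.92 (log2, SE 0.55, adjusted p = 0.0177). Racgap1, a GTPase-activating protein of cytokinesis, is among the shorter of these genes, with a CDS of 1926 bases. It had 5684, 6736 and 6478 CPM without exon 5, against 1235, 876 and 386 CPM in the inputs, and a log2 fold change of 2.92 (SE 0.49, adjusted p = 0.0134). Per kilobase of CDS its level was 3271 CPM without exon 5 and 432 CPM in input, which is above the 1545 and 237 CPM per kilobase of Srrm2. On that scale Irs2 stood at 2092 CPM per kilobase without exon 5 and 275.9 in input, and Kmt2d at 601 and 66.6.

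Map1b, Ubr4 and Dst had smaller differences from input. Map1b, a microtubule-associated protein of axons, had 7069, 8671 and 8219 CPM without exon 5, against 2018, 4079 and 2424 CPM in the inputs. Its log2 fold change of 1.49 (SE 0.37, adjusted p = 0.0275) was close to the median of all genes, and by library size alone it was 0.34. Ubr4, a ubiquitin ligase of the N-degron pathway, was higher by 1.66 (SE 0.42, adjusted p = 0.0281), and Dst, the cytoskeletal linker dystonin, by 1.74 (SE 0.49, adjusted p = 0.0383). Ahnak, a giant scaffold protein, did not pass. It had 4333, 8984 and 9512 CPM without exon 5, against 1988, 1378 and 0 CPM in the inputs, at a log2 fold change of 2.76 (SE 1.06, adjusted p = 0.0871). Both groups of Ahnak varied widely, and input replicate 3 held no count.

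Genes with high input levels gave a mixed picture. Vgf, a secreted neuropeptide precursor, had 1561, 1391 and 2658 CPM without exon 5, against 8014, 1922 and 3208 CPM in the inputs, at a log2 fold change of -1.23 (SE 0.66, adjusted p = 0.212). The groups overlapped. Huwe1, a HECT-domain ubiquitin ligase, had 3746, 3778 and 3319 CPM without exon 5, against 2139, 2285 and 1797 CPM in the inputs, and a log2 fold change of 0.80 (SE 0.39, adjusted p = 0.159). Its groups did not overlap with TMM scaling, but its fold change was -0.41 by library size alone. Eef2, the translocation factor of translation elongation, had 620, 738 and 563 CPM without exon 5, against 482, 3673 and 772 CPM in the inputs, so that its mean in input rests on 1 library (log2 fold change -1.36, SE 0.74, adjusted p = 0.217, and 0.17 without input replicate 2).

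Chtop mRNA itself (ENSMUSG00000001017.15, chromosome 3, 90498539 to 90509527) did not pass. Its CDS of 831 bases had 107, 143 and 203 counts without exon 5, against 59, 4 and 0 in the inputs. In CPM these are 321, 275 and 225 without exon 5 and 592, 42.7 and 0 in input. The first input came from the line that carries the transgene without exon 5, and whether these counts come from the transgene or from the endogenous gene cannot be told apart in this table. The log2 fold change was 0.36 (SE 1.20, adjusted p = 0.875). It was -0.89 by library size alone, and without input replicate 1 it was 3.71 (adjusted p = 0.0481).

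Among genes that passed higher with at least 20 input counts, the highest fold changes belonged to a cadherin, chromatin proteins and a Golgi protein. Celsr3, an atypical cadherin of axon guidance (CDS of 9927 bases), had 2038, 2113 and 2036 CPM without exon 5, against 40.2, 203 and 0 CPM in the inputs. The immunoprecipitates were almost equal and the inputs were not, and the log2 fold change was 4.65 (SE 0.96, adjusted p = 0.0192). Chd6, a chromatin remodeler, had 1504, 1769 and 2563 CPM without exon 5, against 0, 246 and 0 CPM in the inputs (fold change 4.56 on the log2 scale, SE 1.21, adjusted p = 0.0334). Golgb1, the Golgi tether giantin, had 1429, 1773 and 2222 CPM without exon 5, against 0, 128 and 121 CPM in the inputs (4.45, SE 0.98, adjusted p = 0.0194). Of the 12 genes of this kind, 10 had at least 1 input at 0, and for Chd6 all input counts came from input replicate 2.

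Both Tet genes on the list encode enzymes that oxidise methylcytosine in DNA. Tet2 had 1432, 1765 and 2454 CPM without exon 5, against 0, 278 and 0 CPM in the inputs (fold change 4.34 on the log2 scale, SE 1.23, adjusted p = 0.0384). Tet3 had 1402, 1239 and 1222 CPM without exon 5, against 70.3, 160 and 0 CPM in the inputs (4.05, SE 0.93, adjusted p = 0.0216). Setd5, a SET-domain chromatin protein, was higher by 4.36 (SE 0.93, adjusted p = 0.0194) and the repressor Cic, a target of Ras signalling, by 3.69 (SE 0.97, adjusted p = 0.0324). Fam193b spread most among the immunoprecipitates, at 1232, 2380 and 3601 CPM without exon 5, against 50.2, 342 and 0 CPM in the inputs (4.19, SE 1.06, adjusted p = 0.0281).

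Prrc2a and Rnf213 had counts in every input. Prrc2a, a proline-rich RNA-binding protein, had 3020, 3283 and 3235 CPM without exon 5, against 70.3, 416 and 241 CPM in the inputs, and a log2 fold change of 3.71 (SE 0.65, adjusted p = 0.0168). Rnf213, a giant ubiquitin ligase with an AAA domain, had 1561, 1521 and 1400 CPM without exon 5, against 141, 139 and 121 CPM in the inputs. With TMM scaling, all 6 libraries of Rnf213 agreed closely within their group. The log2 fold change was 3.48 (SE 0.62, adjusted p = 0.0168), or 2.27 by library size alone. Its inputs held only 14, 13 and 10 counts. Rbm15, which recruits the mRNA adenosine methyltransferase and binds the export machinery, was higher by 3.62 (SE 1.00, adjusted p = 0.0365). Peg3, an imprinted zinc finger gene, had 3176, 3575 and 4543 CPM without exon 5, against 763, 246 and 0 CPM in the inputs (3.48, SE 1.00, adjusted p = 0.0397).

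**Figure D2:**
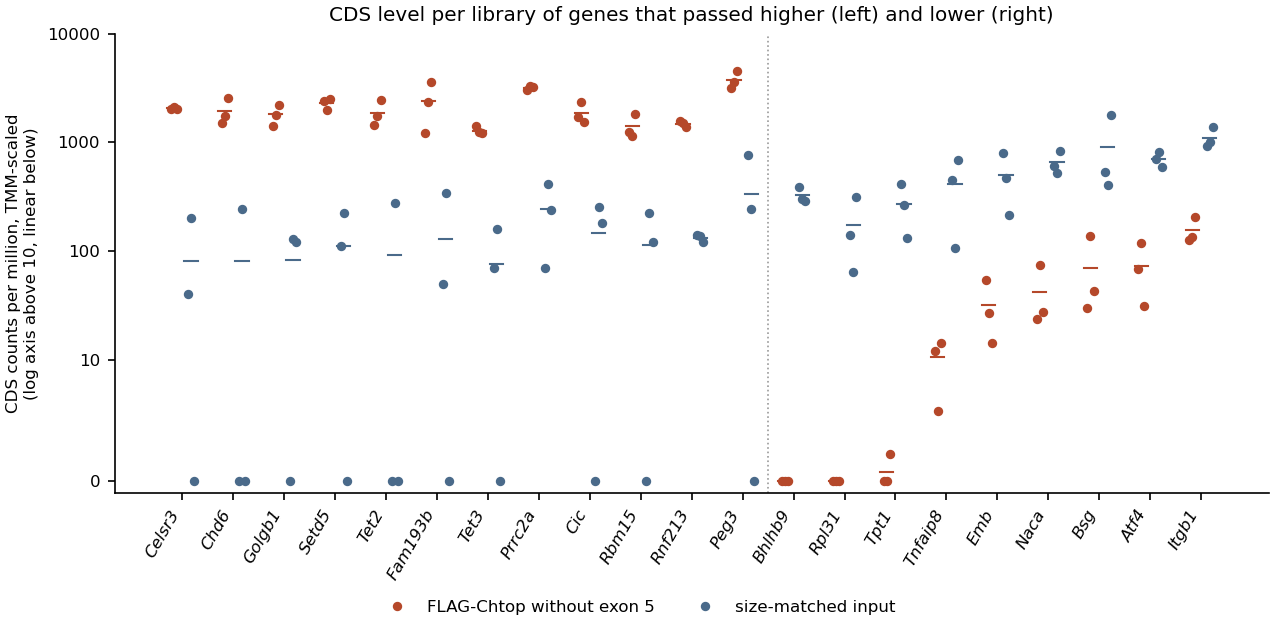
CDS level in each library (CPM scaled by TMM, log axis above 10 and linear below) of the 12 genes with the highest fold changes among those that passed higher with at least 20 input counts (left of the dotted line) and of the 9 named genes that passed lower (right). Points are libraries and lines are means, with FLAG-Chtop without exon 5 left of input for each gene. Celsr3 stands at 2036 to 2113 CPM without exon 5 and at 0 to 203 CPM in input, and Bhlhb9 has no count in any library without exon 5.

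For genes with no input count at all, Arhgef11 had the largest lower bound. This guanine nucleotide exchange factor had 357, 578 and 1331 counts without exon 5, against 0, 0 and 0 in the inputs. Its CDS was at least 37.2-fold higher without exon 5 (adjusted p = 0.00611). Ogt, the enzyme that attaches N-acetylglucosamine to serine and threonine residues, had 357, 382 and 705 counts without exon 5, against 0, 0 and 0 in the inputs, and was at least 26.3-fold higher (adjusted p = 0.00611). Ptpn23, a phosphatase-like protein of endosomal sorting, was at least 27.1-fold higher (adjusted p = 0.00724). Tsc22d2 (at least 22.6-fold), Bod1l, a protector of replication forks (at least 19.9-fold), and Nlgn2, the adhesion protein of inhibitory synapses (at least 14.8-fold), followed. The zinc finger genes Zfp871 and Zfp687 were at least 14.6-fold and 13.9-fold higher. The floor of 3 counts in a shallow input is 30.1 CPM or more, so these bounds depend on the depth of the inputs. They also depend on the TMM factors, 0.709 to 0.802 without exon 5 and 1.15 to 2.42 in the inputs. By library size alone, which was not computed for them, bounds on higher genes would be smaller. The smallest bounds given further below need not hold there.

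The 28 genes that passed lower had a median CDS of 1041 bases. Only 9 of them have a symbol, and these include proteins of translation and of the cell surface. Mitochondrially encoded genes carry no symbol here, and how many of the others are such genes was not determined. Bhlhb9, an X-linked gene (CDS of 1617 bases), had 0, 0 and 0 counts without exon 5, against 39, 28 and 24 in the inputs, and was at least 54.2-fold lower without exon 5 (adjusted p = 0.0194). Rpl31, a protein of the large ribosomal subunit, had 0, 0 and 0 counts without exon 5, against 14, 6 and 26 in the inputs, and was at least 28.7-fold lower (adjusted p = 0.0257). Tpt1, the translationally controlled tumour protein, had 0, 0 and 2 counts without exon 5, against 41, 25 and 11 in the inputs (fold change -7.72 on the log2 scale, SE 1.76, adjusted p = 0.0214). In all 3 genes the libraries without exon 5 were far deeper than the inputs that held the counts. Bhlhb9 and Rpl31 entered the test only through the inputs, so with 0 counts without exon 5 their direction was fixed by the filter. Ribosomal protein genes and Tpt1 have many processed copies in the genome, and no source used here states how reads shared with copies were counted.

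The other named genes that passed lower kept some counts without exon 5. Naca, a subunit of the nascent polypeptide-associated complex, had 24.0, 74.9 and 27.7 CPM without exon 5, against 613, 523 and 832 CPM in the inputs (fold change -3.94 on the log2 scale, SE 1.04, adjusted p = 0.0324). Bsg, the cell-surface glycoprotein basigin, had 29.96, 138 and 43.3 CPM without exon 5, against 532, 406 and 1773 CPM in the inputs (-3.67, SE 1.00, adjusted p = 0.0355). Itgb1, the integrin beta 1 subunit, had 126, 136 and 208 CPM without exon 5, against 924, 1004 and 1375 CPM in the inputs (-2.81, SE 0.77, adjusted p = 0.0357). None of these groups overlapped. Atf4, a transcription factor of the integrated stress response, fell by 3.26 on the log2 scale (SE 0.96, adjusted p = 0.0425). Emb, a relative of basigin, had a log2 fold change of -3.98 (SE 1.13, adjusted p = 0.0383) and Tnfaip8 one of -5.23 (SE 1.41, adjusted p = 0.0343). The other 19 genes that passed lower carry no symbol in the tables. The 2 with the lowest p-values, ENSMUSG00000064370.1 and ENSMUSG00000064351.1, had log2 fold changes of -5.05 (SE 0.70) and -4.34 (SE 0.63), with an adjusted p of 0.00611 each.

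Gene lists hold only genes with a symbol. Of all 5583 tested genes with a symbol, 13.5% passed higher and 0.161% lower, against 11.8% and 0.439% of all genes tested. Of the 5583, 1447 had 0 in every input, where the direction was fixed by the filter. A list's share higher therefore also depends on how many members had no input count, and shares were not corrected for that. The median log2 fold change of genes with a symbol was 1.77, or 0.98 with genes at 0 in a group at their bound, and over all genes tested it was 1.59, or 0.78 at the bound. The lists' calls followed the settings: with any 1 library without exon 5 left out, or by library size alone, no list held more than 2 genes higher.

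The genes of Chtop's own pathway were described as a list of mRNA export factors. Of 22 identifiers tested, 5 passed higher (22.7%) and 0 lower, and their median log2 fold change was 1.93, or 1.05 with the 8 members without an input count at their bounds. The 5 include both identifiers of Zc3h11a, a zinc finger protein associated with TREX, which hold the same counts of 178, 374 and 571 without exon 5, against 0, 0 and 0 in the inputs, and therefore stand for 1 measurement (at least 19.2-fold higher, adjusted p = 0.0111). Zc3h18, which joins the cap-binding complex to RNA decay and export factors, had 53, 171 and 390 counts without exon 5, against 0 in every input, and was at least 9.36-fold higher (adjusted p = 0.0187). Rae1, an export factor at the nuclear pore, was at least 2.53-fold higher (adjusted p = 0.0386). The remaining one, the pore-side helicase Ddx19a, passed at an adjusted p of 0.043 and, like the next 3 genes, was picked after its value was seen. The TREX helicase Ddx39b had a log2 fold change of 3.25 (SE 1.24, adjusted p = 0.0859), the TREX scaffold Thoc2 one of 2.32 (SE 1.16, adjusted p = 0.177) and the export receptor Nxf1 one of 1.82 (SE 1.13, adjusted p = 0.279).

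Nuclear transport and arginine methylation, the other functions tied to Chtop, were described in the same way. Of 45 nucleoporins and transport receptors, 3 were higher (6.67%, below the 13.5% of genes with a symbol) and 0 lower, with a median log2 fold change of 1.11 (1.00 at the bound). They were the scaffold nucleoporin Nup133 (at least 12.5-fold), the export receptor Xpo7 (at least 4.15-fold) and the import receptor Ipo13 (at least 2.07-fold), each with 0 counts in every input. Of the 45 members, 6 had no input count, against 1447 of the 5583 genes with a symbol, so the 2 shares are not directly comparable. Of 8 arginine methylation genes, 1 was higher (12.5%, near the share of genes with a symbol), the nuclear methyltransferase Prmt6 with 55, 29 and 161 counts without exon 5, against 0, 0 and 0 in the inputs (at least 4.06-fold, adjusted p = 0.0307).

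For pre-mRNA processing, 4 lists were described, to be read against the 13.5% of genes with a symbol. Of 42 SR proteins and speckle scaffolds, 9 were higher (21.4%) and 0 lower, with a median of 1.64 (1.42 at the bound). Besides Srrm2 they include Scaf1, which binds the tail of RNA polymerase II (log2 fold change 5.21, SE 1.13, adjusted p = 0.0194), and Tra2a, a splicing activator, with 81, 187 and 474 counts without exon 5, against 0, 2 and 0 in the inputs. The ratio of summed Tra2a counts over TMM-scaled library sizes was 58.4 (95% interval 16.1 to 483, counting error only). Of 34 core spliceosome genes, 6 were higher (17.6%) and 0 lower (median 1.64, 1.53 at the bound), among them the helicases Snrnp200 (at least 9.82-fold) and Ddx46 (ratio 50.1, interval 17.1 to 244) and Casc3, a subunit of the exon junction complex (at least 5.49-fold). Of 51 hnRNPs and other splicing regulators, 3 were higher (5.88%; median 1.37, 1.11 at the bound): Rbm15, Ewsr1 (2.68, SE 0.76, adjusted p = 0.0379) and Rbm4 (at least 2.15-fold). Of 25 cleavage and polyadenylation factors, 4 were higher (16.0%; median 1.25, 1.19 at the bound), with Wdr33, which reads the polyadenylation signal, at a ratio of 31.6 (interval 10.8 to 153) and Rbbp6 at a log2 fold change of 4.02 (SE 1.04, adjusted p = 0.0311).

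Chromatin and genome maintenance genes were next. Of 97 chromatin writers, erasers and remodelers, 24 were higher (24.7%, against 13.5% of genes with a symbol) and 0 lower, with a median log2 fold change of 2.00 (1.89 at the bound) and a median CDS of 4950 bases. With a length trend taken out of each library, 11 were higher and the median was 1.36. Over all genes, with or without a symbol, that median was 1.44. By library size alone 1 member of the list was higher. Kmt2a, a methyltransferase related to Kmt2d, had 3023, 3638 and 3859 CPM without exon 5, against 422, 182 and 916 CPM in the inputs (2.79, SE 0.62, adjusted p = 0.0194). Brwd1, a bromodomain protein, was higher by 4.83 (SE 1.07, adjusted p = 0.0194), and the histone demethylase Kdm5a had 97, 221 and 527 counts without exon 5, against 0, 2 and 0 in the inputs. Of 55 DNA repair and checkpoint genes, 11 were higher (20.0%) and 0 lower. Their median of 2.06 is 0.90 when the 15 members without an input count are set at their bounds, and with the length trend 7 were higher. Polq, the polymerase of microhomology-mediated end joining, had 224, 379 and 876 counts without exon 5, against 0, 2 and 0 in the inputs (fold change 6.71 on the log2 scale, SE 1.15, adjusted p = 0.0148). The translesion polymerase Rev1, the mismatch repair protein Msh6 and the nuclease scaffold Slx4 had 0 counts in every input and were at least 12.9-fold, 6.98-fold and 5.92-fold higher. Of 167 Zfp zinc finger genes, 23 were higher (13.8%) and 0 lower. Their median of 2.68 is 0.82 when the 69 members without an input count are set at their bounds.

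Genes for giant proteins and motors had larger shares higher than the 13.5% of genes with a symbol. Of 35 giant ubiquitin ligases and deubiquitinases, 14 (40.0%) were higher and 0 lower (median 2.26, 2.25 at the bound), including Herc1, which had 4000, 3942 and 3596 CPM without exon 5, against 733, 1132 and 555 CPM in the inputs (2.25, SE 0.47, adjusted p = 0.0187). The deubiquitinases Usp35 and Usp31 were at least 12.5-fold and 7.08-fold higher. Of 54 giant cytoskeletal and scaffold genes, 14 (25.9%) were higher and 0 lower (median 1.93, 1.87 at the bound), including Syne2, which links the nucleus to the cytoskeleton (2.63, SE 0.49, adjusted p = 0.0177), and the lipid transfer protein Vps13d (3.23, SE 0.69, adjusted p = 0.0194). Of 45 kinesin, dynein and myosin genes, 12 (26.7%) were higher and 0 lower (median 2.23, 1.88 at the bound). The ciliary dynein Dync2h1 had 115, 148 and 340 counts without exon 5, against 0, 0 and 0 in the inputs (at least 10.2-fold, adjusted p = 0.0168), and the neuronal kinesin Kif5a had 121, 130 and 350, against 0, 1 and 0. These lists were chosen with earlier results of these data known, and their median CDS lengths of 5367, 8737 and 3446 bases exceed the 1992 bases of all genes tested. With the length trend taken out, 5, 6 and 9 of their members were higher, at medians of 1.54, 1.17 and 1.84 against 1.44 over all genes. The 1.44 includes genes without a symbol, and no such median was computed for genes with a symbol alone.

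Among lists of neuronal and signalling genes, 10 of 53 axon guidance, adhesion and synapse genes were higher (18.9%, against 13.5% of genes with a symbol) and 0 lower. Their fitted median of 1.41 lies below the 1.77 of genes with a symbol and the 1.59 of all genes tested. At the bound the order reverses, with 1.38 against 0.98 and 0.78. Celsr2, a relative of Celsr3, had 63, 191 and 223 counts without exon 5, against 0, 1 and 0 in the inputs (fold change 6.09 on the log2 scale, SE 1.35, adjusted p = 0.0194), and the sodium channel gene Scn3a was at least 6.63-fold higher. Of 32 insulin, mTOR and growth factor genes, 6 were higher (18.8%; median 1.84, 1.71 at the bound), among them both Irs genes. Irs1 had 314, 338 and 954 counts without exon 5, against 3, 0 and 1 in the inputs (5.92, SE 1.02, adjusted p = 0.0148). The mTOR complex subunit Rptor was at least 12.1-fold higher. Of 21 intronless and immediate-early genes, 8 were higher (38.1%) and 0 lower (median 2.92, or 1.86 with the 5 members without an input count at their bounds). They include Noct, a circadian deadenylase relative, with 3671, 4028 and 4886 CPM without exon 5, against 522, 1185 and 289 CPM in the inputs (2.65, SE 0.57, adjusted p = 0.0194), and the single-exon genes Rhob and Ier2 (at least 3.63-fold and 2.84-fold). Of 12 histone genes, 0 passed with edgeR (median 1.11), with 1 higher and 0 lower at an unadjusted p under 0.05, and 0 passed with DESeq2 or limma-voom. Without input replicate 2, 7 of the histone genes passed higher, and 1 did without input replicate 1, without input replicate 3 or with the length trend.

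Of 49 cell cycle genes, 5 were higher (10.2%, near or below the share of genes with a symbol) and 0 lower (median 1.42, also at the bound), among them Cenpf, a kinetochore protein with 1309, 1763 and 1845 CPM without exon 5, against 90.4, 459 and 277 CPM in the inputs (2.57, SE 0.67, adjusted p = 0.0324), and the condensin subunit Smc2. Of 18 neuroblastoma and sympathetic neuron genes, 2 were higher (11.1%; median 0.33, 0.10 at the bound): the receptor kinase Alk (3.69, SE 1.08, adjusted p = 0.0418) and Dpysl3 (at least 4.79-fold).

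Lists of abundant housekeeping mRNAs had low medians. Of 28 cytosolic ribosomal protein genes, 0 were higher and 1 was lower, and their median log2 fold change was -2.26. DESeq2 called 14 of them lower and limma-voom 4. Their median CDS was 614 bases, and with the length trend taken out their median was -1.19, with 1 higher and 1 lower. Rack1, a ribosome-bound scaffold, had 240, 181 and 91.0 CPM without exon 5, against 763, 886 and 796 CPM in the inputs, and Rpl4 had 174, 198 and 61.0 CPM without exon 5, against 834, 780 and 446 CPM in the inputs. Both were apart between the groups without passing (adjusted p = 0.072 and 0.0872). Of 36 translation factors, 2 were higher and 2 lower (median 0.86, 0.24 at the bound, or -0.28 by library size alone): Eif2ak4, the kinase Gcn2, was at least 12.3-fold higher and the release factor Gspt1 had 89, 168 and 229 counts without exon 5, against 0, 1 and 0 in the inputs, while Naca and Tpt1 were lower. Of 46 membrane glycoprotein and secretory genes, 1 was higher, the endocytic receptor Lrp1 (3.11, SE 0.69, adjusted p = 0.0194), and 2 were lower, Bsg and Itgb1 (median -0.24). Of 33 chaperones, 1 was higher, Hspa4l (at least 8.43-fold), and the median was -0.12. Of 12 nuclear-encoded oxidative phosphorylation genes, 0 passed with edgeR (median 0.28, or -0.81 by library size alone), with 3 higher and 1 lower at an unadjusted p under 0.05. DESeq2 called 2 of them lower and limma-voom 1. Atp5b, the catalytic beta subunit of ATP synthase, had 135, 267 and 127 CPM without exon 5, against 834, 940 and 965 CPM in the inputs (fold change -2.37 on the log2 scale, SE 0.83, adjusted p = 0.0653). Only 49 of the 88 ribosomal protein genes and 27 of the 89 oxidative phosphorylation genes of these lists have a symbol in the tables, so the counts cover the named part of each family.

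**Figure D3:**
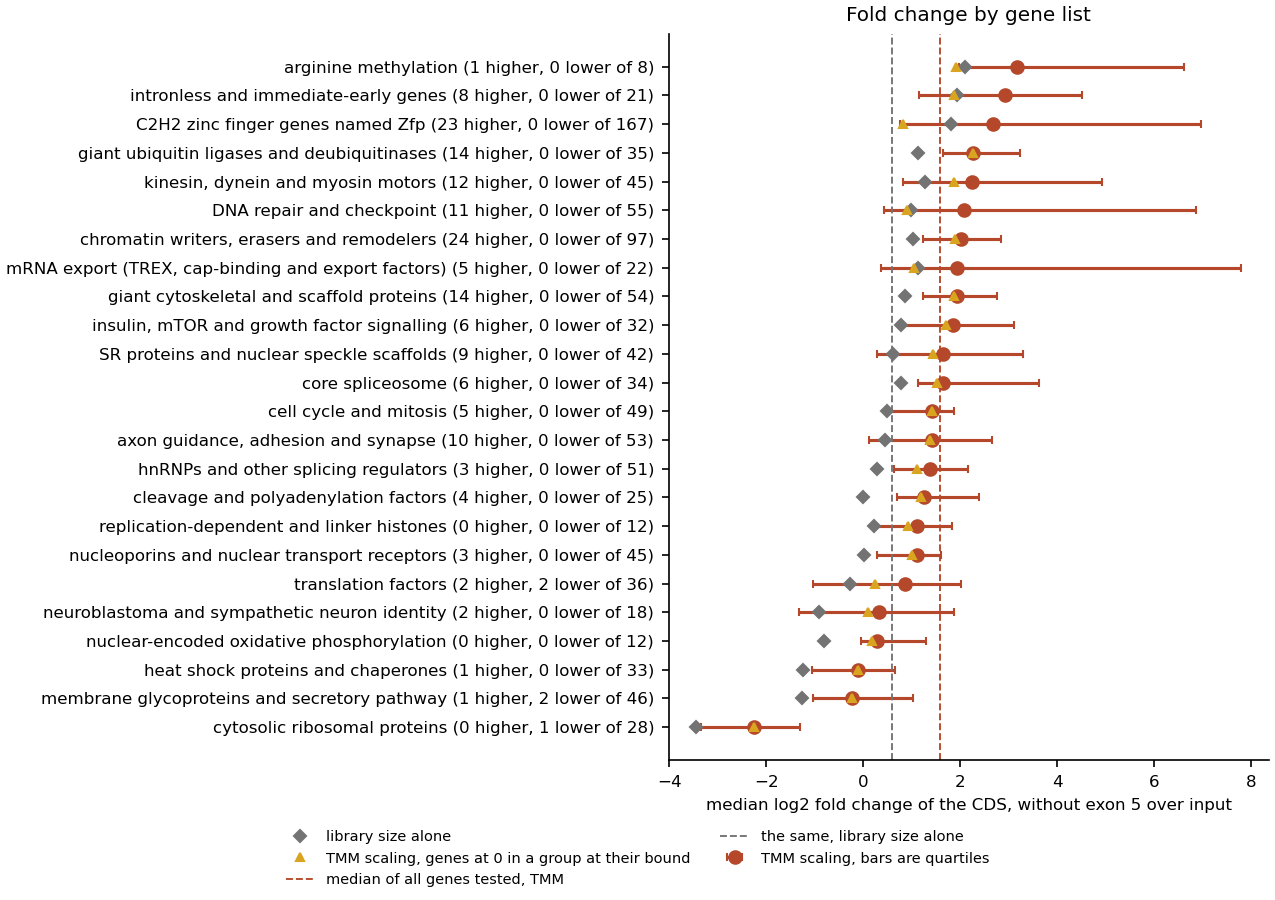
Median log2 fold change of the CDS, without exon 5 over input, for each gene list (horizontal axis), with quartiles as bars for TMM scaling, triangles for the median with genes at 0 in a group at their bound and diamonds for library size alone. Dashed lines are the medians of all 6376 genes, 1.59 with TMM and 0.59 by library size alone, and the labels give the members that passed in each direction. The ribosomal protein list lies lowest at -2.26. The arginine methylation list, over 8 members, stands at 3.17 with fitted fold changes and at 1.90 at the bound, below the 2.25 of giant ubiquitin ligases and deubiquitinases.

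Median fold changes were higher in bins of longer coding sequence. In 5 bins of equal gene number, from CDSs of up to 1248 bases to CDSs of at least 3356 bases, the median log2 fold change was 0.61, 1.23, 1.67, 1.73 and 2.10. With genes at 0 in a group at their bound it was 0, 0.39, 0.77, 1.14 and 1.77. The share of genes that passed higher was 4.05%, 8.20%, 10.6%, 14.6% and 21.5%, and 20 of the 28 genes that passed lower lay in the shortest bin. Only 9 of those 28 have a symbol, and mitochondrially encoded genes, which carry no symbol, were not set apart. Among genes with a mean of at least 20 CPM, the median was 0.33 in the shortest bin and 2.10 in the longest, a difference of 1.77. The same difference was 2.07 at a minimum mean of 50 CPM, 1.65 by library size alone and 1.79 at the bound. The level itself also differed between bins. The median CDS level was 324.8 CPM without exon 5 and 89.3 CPM in input in the longest bin, against 41.8 and 36.2 CPM in the shortest. The share of genes with no count in any input was 23.7% in the shortest of these bins and 13.6% in the longest. Across the 6376 genes, the log2 CDS length correlated with the CDS level at r = 0.629 without exon 5 and r = 0.196 in input, and with the fold change at a Spearman rank correlation of 0.184, or 0.415 at the bound. Genes share libraries and are not independent, so no p is given. The median CDS was 2695 bases for genes that passed higher, 1041 for those that passed lower and 1992 for all tested. With a length trend taken out of each library, 557 genes were higher and 16 lower.

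**Figure D4:**
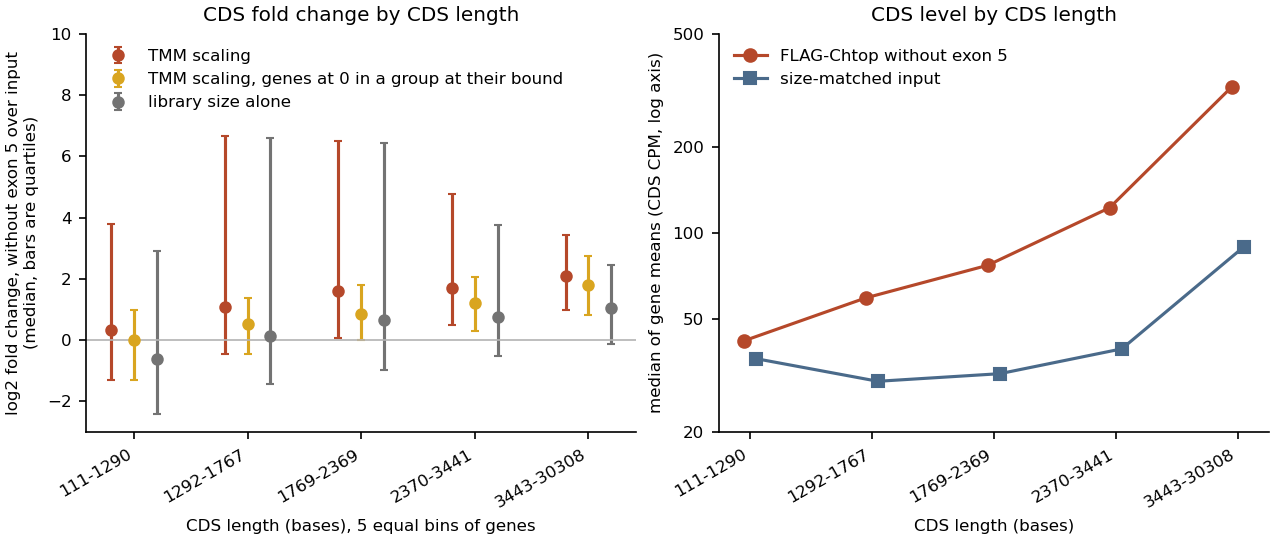
Left: log2 fold change of the CDS, without exon 5 over input, in 5 bins of CDS length (bases) for genes with a mean of at least 20 CPM, as medians with quartiles, for TMM scaling, for the same with genes at 0 in a group at their bound and for library size alone. Right: the median of the gene means (CPM, log axis) in the same bins. The median fold change is 0.33 in the shortest bin and 2.10 in the longest with TMM, and the level without exon 5 is 324.8 CPM in the longest bin, against 89.3 CPM in input.

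The 3' UTR of the same genes was used to ask, gene by gene, whether the difference from input departed between CDS and 3' UTR. Each part was scaled to its own library totals, so a shift of all genes toward the CDS is scaled out. The test therefore cannot show the larger CDS share of CDS and 3' UTR counts, 70.1% without exon 5 against 48.2% in input. Of 4509 genes with enough counts in both parts, 0 passed for a CDS difference that exceeded or fell below that of the 3' UTR, in edgeR's quasi-likelihood test with the library as a block; 626 genes had an unadjusted p under 0.05. The median of the CDS difference minus the 3' UTR difference was 0.40 on the log2 scale, but it was -0.39 with the library sizes of each gene part, -0.013 without input replicate 1 and -0.063 without input replicate 3, so its sign depends on these choices. Plec was higher by 4.07 in its 3' UTR (adjusted p = 0.0115) and Racgap1 by 3.79 (adjusted p = 0.00728), beside 2.73 and 2.92 in their CDS. Noct was higher by 4.27 in the 3' UTR (adjusted p = 0.00405), beside 2.65 in the CDS. Srrm2 did not pass in its 3' UTR (1.93, adjusted p = 0.214).

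The isoform with exon 5 was set against the same 3 inputs, which both comparisons share, and 885 genes were higher and 56 lower there (13.9% and 0.878%). Srrm2 was higher than input by 2.70 without exon 5 and by 2.59 with it, Kmt2d by 3.17 without and 3.09 with it, Plec by 2.73 without and 1.90 with it, and Map1b by 1.49 without and 2.25 with it (log2 scale). In the direct test of the isoform without exon 5 over the isoform with it, 0 of 6376 genes passed in edgeR's quasi-likelihood test. In that fit 82 had an unadjusted p under 0.05. DESeq2 also passed 0, with 167 at an unadjusted p under 0.05. With only the 6 immunoprecipitated libraries in edgeR's fit, 0 of 6214 genes passed and 401 had an unadjusted p under 0.05. Paqr3, a Golgi membrane protein, had 18, 45 and 94 CDS counts without exon 5, against 0, 0 and 0 with exon 5 (unadjusted p = 0.00183), and 0 in every input. Bhlhb9 had 0, 0 and 0 counts without exon 5, against 28, 15 and 0 with exon 5 (unadjusted p = 0.00448). Emd, the nuclear envelope protein emerin, had 8, 19 and 10 counts without exon 5, against 0, 0 and 0 with exon 5 (unadjusted p = 0.00515). Tasp1 and Cir1 were likewise at 0 in each library with exon 5. None of these held after adjustment, and p-values for genes at 0 in a group rest on few counts.

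A small set of calls, 3 of them lower, held under most settings. Srrm2, Kmt2d, Arhgef11 and Ogt passed higher with each single library without exon 5 left out, the count of genes called then being 4 to 11. Prune2, Tsc22d2, Ptpn23, Bod1l and Zc3h11a passed in at least 15 of the 19 alternatives, as did these 4. So did 3 genes that passed lower and carry no symbol, ENSMUSG00000064370.1, ENSMUSG00000064351.1 and ENSMUSG00000064357.1, in 16 or 17 of the alternatives. Whether these 3 are mitochondrially encoded was not determined. The whole set was picked by its calls after they were seen. By library size alone Irs2, Polq, Zfp871 and Uhrf1bp1l joined it among the higher genes, and 21 genes passed lower, namely Bsg, Itgb1, Atf4, Tpt1, Naca, Bhlhb9 and 15 without a symbol, which include ENSMUSG00000064370.1 and ENSMUSG00000064351.1 with the lowest adjusted p of 0.000193. The depth of the 3 inputs, 34296 to 81283 CDS counts, bounds what could be called elsewhere.

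**Figure D5:**
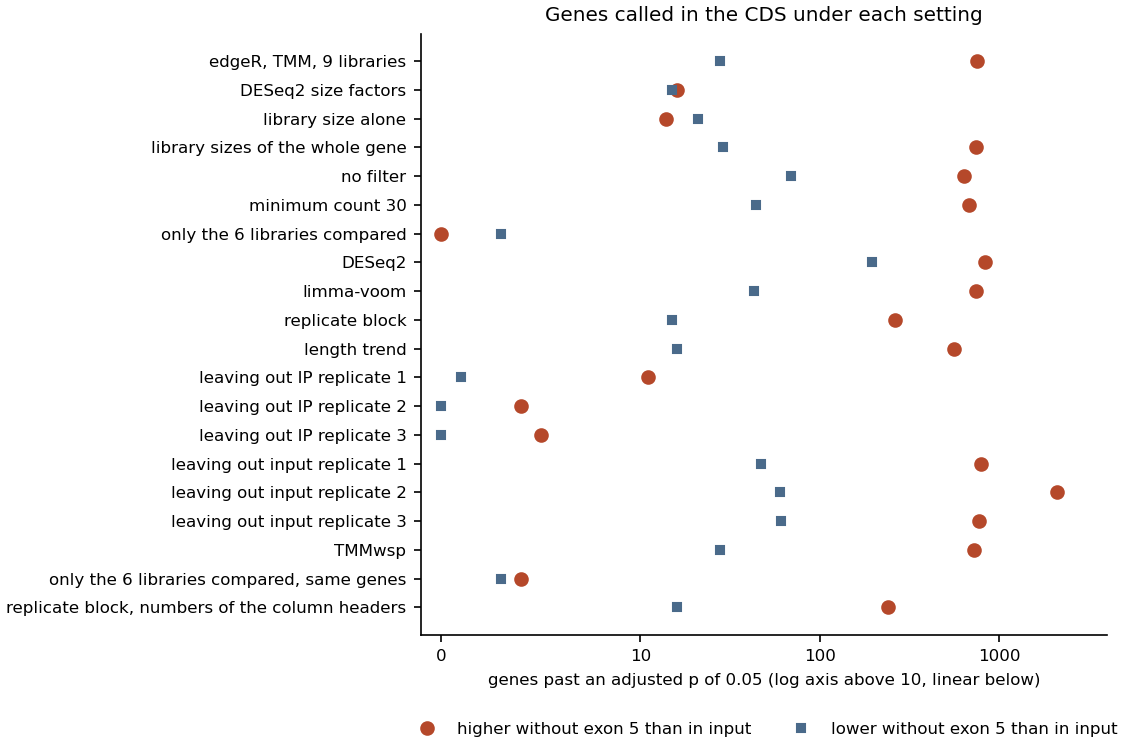
Number of genes past an adjusted p of 0.05 in the CDS without exon 5 over input under each setting (log axis above 10, linear below); circles are genes higher without exon 5 and squares genes lower. The top row is the fit with all 9 libraries (752 higher, 28 lower), and the rows that leave out a library of the isoform without exon 5 show 11, 4 and 5 higher.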

How the data were processed

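iCLIP libraries of FLAG-Chtop without exon 5, FLAG-Chtop with exon 5 and size-matched input were used, 3 of each. Raw counts for each gene part (CDS, UTRs and their sum) were deposited by the authors, per the file headers. The submitters' processing notes name TopHat2, DESeq2 and mm10, without versions; no source used here states the counting tool, the strand setting or whether reads were collapsed by the random primer bases. Intervals and floors therefore cover counting error only. CDS lengths in bases were deposited too. Symbols come from the deposited tables, and coordinates from RefSeq GRCm38.p6, the assembly of mm10. Headers number the inputs of the lines without and with exon 5 as replicates 2 and 1, where titles give 1 and 2; titles were followed and columns matched by primer and cDNA.

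CDS counts of all 9 libraries entered 1 edgeR 4.0.16 quasi-likelihood fit in R 4.3.3 (robust, TMM, filterByExpr with minimum count 10 and total 15), with no block and library sizes from the CDS table. The Benjamini-Hochberg threshold was 0.05. A bound sets each library of the group at 0 at 3 counts, relative to its TMM-scaled size. CPM values are TMM-scaled, and a 95% interval on a ratio pools the libraries of a group. DESeq2 1.42.0 and limma 3.58.1 were alternatives, as were other scalings, filters, libraries left out, a replicate block and a length trend. Gene scripts were tested on simulated data.

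The gene lists, members and rules were chosen with earlier results of these data known. Named genes are drawn from: Chtop; the 12 highest fold changes with at least 20 input counts; the 10 highest bounds; all named genes lower; the 10 highest levels in either group; up to 4 lowest adjusted p per list; the 5 lowest p between isoforms. Genes without a symbol were tested and not named, including mitochondrially encoded ones: the list of these held 0 named members.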

Additional observations from a re-analysis of the deposited data

How the results depend on the processing

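Against 752 genes higher and 28 lower, size factors of DESeq2 in edgeR gave 16 and 15, library size alone 14 and 21, and only the 6 libraries compared 0 and 3. At an unadjusted p under 0.05 the 6-library fit had 654 higher and 60 lower of 3636 genes tested. On the 6376 genes of the 9-library fit it passed 4 and 3. There 1828 were higher and 74 lower at an unadjusted p under 0.05, against 2035 and 110 with 9 libraries. Leaving out 1 library at a time gave 4 to 2100 genes higher and 0 to 61 lower, of 7077 to 7634 tested. Each library without exon 5 left out gave 11, 4 or 5 higher, and input replicate 2 left out gave 2100. Genes lower numbered 69 with no filter, 44 at a minimum count of 30, 195 with DESeq2, 43 with limma-voom and 16 with the length trend, while genes higher numbered 637, 677, 837, 745 and 557. With no filter 11601 genes were tested and at a minimum count of 30 only 3861, against 6376 with DESeq2, limma-voom and the length trend. With the replicate number as a block, 264 were higher and 15 lower, or 241 and 16 with the numbers of the column headers. Deviations of same-numbered libraries correlated at -0.0192 to 0.00640 by titles and 0.00640 to 0.0139 by headers, which shows no pairing by number. With 38.1% to 78.3% of the tested genes at 0 in an input, these correlations could not exclude a pairing. TMMwsp (723 and 28), the 6 libraries on the same genes, the header numbering and the medians at the bound were chosen after seeing the data. The 3' UTR comparison gave 0 to 2 calls with 1 library left out, the 2 without replicate 2 of the isoform without exon 5. The isoform contrast gave 0 under every alternative run, the replicate block included.

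Chtop had log2 fold changes of -0.69 with DESeq2 size factors, -0.70 with DESeq2, -0.89 by library size alone, -0.024 with the 6 libraries, and -0.20 to 3.71 with 1 library left out (-0.042 without input replicate 2). Huwe1 was at -0.11 with DESeq2 or its size factors and -0.41 by library size alone, and Eef2 ranged from -1.70 to 0.17 with 1 library left out, the last without input replicate 2. Of the named genes' values under the alternatives, 1232 kept direction and call, 637 lost the call, 25 gained one and 10 reversed. The cause of these changes was not tested. Input depth limits every call: at 3 counts a gene stands at 30.1 to 36.2 CPM there.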
